A study of Mus musculus with 6 samples.

Results

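The 10 genes of fatty acid synthesis, elongation and desaturation examined here were measured in the optic nerve of a mouse model of Nf1 optic glioma. They were taken by gene name, Acly, Acaca, Fasn, Scd1, Scd2, Fads1, Fads2, Elovl1, Elovl5 and Elovl6, from a table of 35850 genes, and all 10 were listed. The series holds 6 libraries of poly(A) RNA from optic nerve of 6-week-old mice, 3 labelled control diet and 3 obesogenic diet, and the labels do not say that each library is a separate animal or litter. Every mouse, in both diets, carried an Nf1 allele with the R681X mutation, a floxed Nf1 allele and Cre recombinase under the GFAP promoter. That promoter is active in astrocytes and in glial progenitors, so other cells of the nerve may keep the floxed allele. Nf1 encodes neurofibromin, a brake on RAS signalling. The labels give PicoLab 5053 as the control diet. For the obesogenic diet they name AIN-76A, in which fat gives 58% of the energy, with sucrose. The title of the series calls the exposure maternal, and the sample labels do not say whether the offspring ate the diet too. The comparison asks how this exposure affected gene expression in the nerve.

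Fatty acids are built in the cytosol from acetyl-CoA. ATP citrate lyase (Acly) makes acetyl-CoA from citrate, acetyl-CoA carboxylase 1 (Acaca) turns it into malonyl-CoA, and fatty acid synthase (Fasn) joins these units into palmitate. Elongases (Elovl genes) then lengthen the chain and desaturases (Scd and Fads genes) add double bonds. SREBP transcription factors control many of these genes. In nerve tissue oligodendrocytes use much of the product, because myelin is rich in long-chain lipids.

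Values are in TPM, the share of a transcript among all transcripts, which is scaled to transcript length, so that levels can be compared between genes. Values of single libraries are in the order of libraries 1, 2 and 3 of each diet. None of the 10 genes passed the test between the diets (limma, adjusted p from 0.425 to 0.997). Over all genes tested 0.00696% passed the threshold of an adjusted p under 0.05 (1 of 14364, lower). An unadjusted p under 0.05 was found for 1 of the 10, Elovl1, and for 1575 of all genes tested. Some patterns stood in the values. In 7 of the 10 genes obesogenic library 1 was above every control library and obesogenic library 2 below every control library. This held in 18.6% of all genes tested and was chosen after the values were seen. Elovl1 had all its obesogenic values below all its control values, as did 7.45% of all genes tested.

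The libraries also differed in markers outside these 10 genes, in part within a diet and in part between the diets. Transcripts of immunoglobulin genes took 20.6% of the TPM listed for obesogenic library 2 and at most 0.0439% elsewhere. Summed microglial markers were at 1384 TPM in obesogenic library 2, against 443 to 688 TPM in the other libraries. The median of these 7 markers there was 1.10 above the control mean on the log2(TPM + 1) scale. P2ry12, 1 of the 7, was at 59.1 TPM there, inside its control range of 54.8 to 94.0 TPM. The summed neuronal markers were at 68.8 to 140 TPM in control libraries and at 337, 179 and 986 TPM in obesogenic libraries 1, 2 and 3. These sums did not overlap between the diets. Of the 10 neuronal markers 0 had a lower obesogenic mean, and 5 were higher without overlap, against 8.88% of all genes tested. Relative to the control mean, the median of all genes tested was at 0.19, -0.16 and 0.14 on the log2(TPM + 1) scale in obesogenic libraries 1, 2 and 3. Myelin and glial markers were present in every library, with summed mature oligodendrocyte markers from 27796 to 71605 TPM and Gfap, the astrocyte filament gene, from 1512 to 5157 TPM. Summed adipocyte markers were low, at 7.32 to 25.5 TPM in control and 5.44 to 7.05 TPM in obesogenic libraries, so the sums did not overlap. Of the 10 markers 6 stayed below 1 TPM in every library, with Lep and Cidec listed at 0 throughout, and Plin4 was highest at 6.54 to 13.5 and 4.32 to 6.00 TPM. Nf1 was at 3.67, 3.09 and 4.28 TPM with the control diet, against 2.71, 1.55 and 2.92 TPM with the obesogenic diet (limma adjusted p = 0.647), which checks no label since the genotype was shared.

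Scd2, the main stearoyl-CoA desaturase of the brain, had the highest level of the 10 in all 6 libraries, at 1587 ± 88.4 TPM in control (SD, n = 3). It made up 55.1% to 62.0% of the summed TPM of the 10 genes in every library. Next in control came Fads1 at 285 ± 37.7 TPM and Fads2 at 269 ± 24.7 TPM, whose ranges overlapped. Acly, Elovl1, Scd1 and Fasn followed at 155, 146, 140 and 121 TPM, and each overlapped its neighbour in this order. Elovl6 was at 44.1 ± 9.98 TPM, apart from the genes on either side of it. Acaca at 12.5 ± 3.17 TPM and Elovl5 at 7.84 ± 4.58 TPM were lowest and overlapped. The levels of 4 genes leave out transcripts that GENCODE vM21 names and that were not analysed here: Elovl5-201, Elovl1-201 with 1 other of Elovl1, Acaca-201 and Acly-201. Their places in this order are those of the listed transcripts only.

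**Figure D1:**
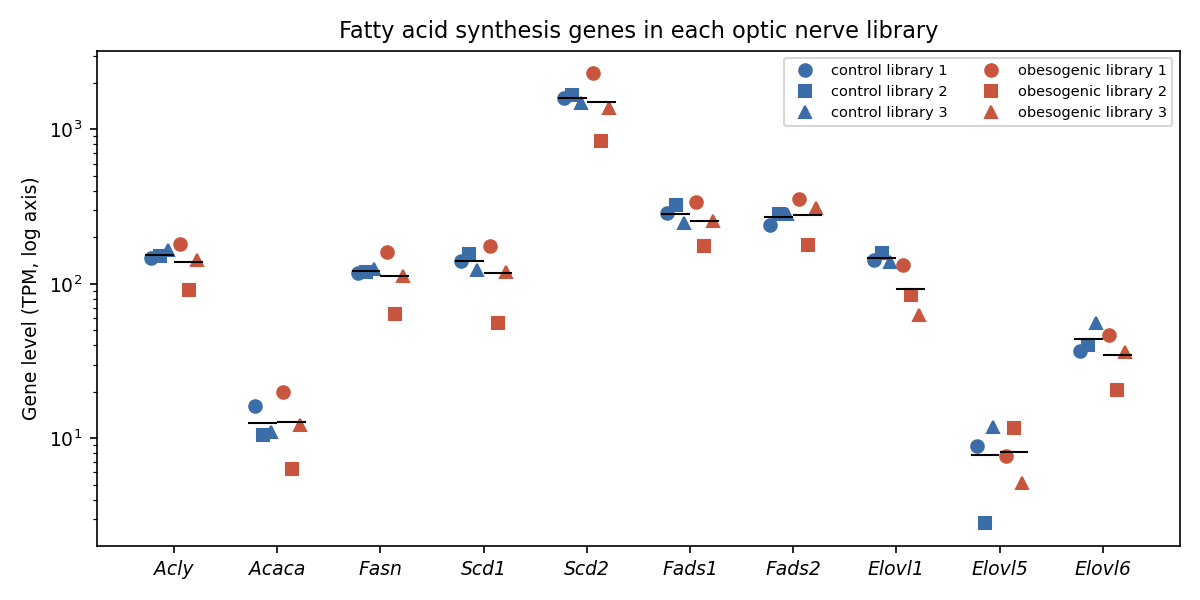
Level of each of the 10 genes in TPM on a log axis, with control libraries in blue, obesogenic libraries in red and the mean of each diet as a short line. Scd2 lies highest in every library. The red square of obesogenic library 2 lies below all control points in 9 of the 10 genes, against 44.2% of all genes tested.

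Acly (ENSMUSG00000020917), at the start of the pathway, measured 147, 151 and 166 TPM in control libraries 1, 2 and 3 and 182, 91.5 and 142 TPM in obesogenic libraries 1, 2 and 3. Obesogenic library 1 was above, and libraries 2 and 3 below, all control libraries. The log2 change was -0.21 (SE 0.26, 95% interval -0.82 to 0.41, limma adjusted p = 0.820). Acaca (ENSMUSG00000020532), the source of malonyl-CoA, was at 16.2, 10.5 and 10.9 TPM in control libraries, while obesogenic libraries gave 20.0, 6.33 and 12.2 TPM. Acaca-204, with a coding sequence of 471 bases, held 38.3% of this level and Acaca-202, with the longest, 7035 bases, held 7.34%. The obesogenic libraries of Acaca lay above, below and within the control range, with a log2 change of -0.07 (SE 0.41, 95% interval -1.05 to 0.90).

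Fasn (ENSMUSG00000025153), which completes palmitate, was nearly equal in the control libraries, at 118, 119 and 125 TPM. In obesogenic libraries it measured 161, 63.9 and 113 TPM. The highest obesogenic library was above and the other pair below all control values, and the difference of the means was smaller than their spread (log2 change -0.20, SE 0.32, 95% interval -0.95 to 0.56, limma adjusted p = 0.873). The interval holds both a lower and a higher level on the obesogenic diet. Intervals are on the log2(TPM + 1) scale.

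The promoter windows of Fasn and Elovl1 are shown, since Elovl1 was the one of the 10 whose diets did not overlap and Fasn had the smallest SD between control libraries on the log2(TPM + 1) scale. Each window is the 250 bases before a RefSeq start site (GRCm38.p6, 5′ to 3′ on the strand of the gene), at chr11:120824548-120824797, minus strand, for Fasn and chr4:118427843-118428092, plus strand, for the first of the 2 listed start sites of Elovl1. Capitals mark CCAAT, the NF-Y box, and GGGCGG, the Sp1 box, on either strand.
Fasn: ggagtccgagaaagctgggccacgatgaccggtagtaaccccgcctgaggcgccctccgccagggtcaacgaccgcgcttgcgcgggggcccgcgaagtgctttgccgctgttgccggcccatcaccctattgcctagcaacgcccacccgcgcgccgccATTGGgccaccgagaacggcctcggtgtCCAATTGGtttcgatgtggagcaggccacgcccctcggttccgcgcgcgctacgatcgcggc
Elovl1: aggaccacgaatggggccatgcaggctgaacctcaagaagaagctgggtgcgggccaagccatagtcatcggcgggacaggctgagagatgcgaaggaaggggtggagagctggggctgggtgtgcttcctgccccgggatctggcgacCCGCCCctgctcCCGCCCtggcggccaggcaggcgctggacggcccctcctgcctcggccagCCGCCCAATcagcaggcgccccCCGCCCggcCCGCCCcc
Fasn held 3 matches to the NF-Y box, of which a pair on opposite strands overlap, and 0 to the Sp1 box. The Elovl1 window shown held 1 match to the NF-Y box, which overlaps 1 of its 5 matches to the Sp1 box. The window of the other Elovl1 start site held 0 matches to the NF-Y box and 2 to the Sp1 box. Over all 32851 windows of this length the NF-Y box was present in 33.85% and the Sp1 box in 32.74%. Windows were listed for 7 of the 10 genes (not Scd1, Scd2 and Fads1), 8 windows in all, of which 3 held the NF-Y box and 4 the Sp1 box. The sterol regulatory element TCACNCCAC, searched on both strands, was found in 0 of these 8 and in 1.05% of all windows. CACGTG, an E-box, was found in 1, that of Elovl5, against 6.02% of all windows. These counts describe letters in a short window only.

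Stearoyl-CoA desaturases put the first double bond into saturated chains. Scd1 (ENSMUSG00000037071) measured 141, 156 and 124 TPM on the control diet and, on the obesogenic diet, 177, 55.9 and 119 TPM. Scd2 (ENSMUSG00000025203) measured 1598, 1670 and 1494 TPM with the control diet, against 2311, 844 and 1378 TPM with the obesogenic diet. Both genes had their highest value in obesogenic library 1, with libraries 2 and 3 below all control libraries. The log2 changes were -0.40 (SE 0.39, 95% interval -1.32 to 0.52) for Scd1 and -0.19 (SE 0.37, 95% interval -1.06 to 0.68) for Scd2. As a share of the family, Scd1 made up 8.13%, 8.53% and 7.65% of the summed Scd1 and Scd2 level in control libraries and 7.10%, 6.21% and 7.92% in obesogenic libraries. The mean shares were 8.10% ± 0.441 and 7.08% ± 0.855 (SD, n = 3; exact permutation test, two-sided, p = 0.2, adjusted over 3 shares p = 0.45). With 3 libraries against 3 the smallest p this test can give is 0.1.

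Fads1 and Fads2, the delta-5 and delta-6 desaturases, make polyunsaturated chains such as arachidonic and docosahexaenoic acid. Fads1 (ENSMUSG00000010663) was at 287, 322 and 247 TPM in control libraries, while obesogenic libraries gave 336, 176 and 254 TPM. Fads2 (ENSMUSG00000024665) was at 241, 285 and 281 TPM on the control diet and, on the obesogenic diet, 354, 178 and 310 TPM. Fads2 was the one desaturase among the 10 with obesogenic library 3 above all control libraries, and its log2 change was 0.00 (SE 0.28, 95% interval -0.65 to 0.66). For Fads1 the log2 change was -0.20 (SE 0.26, 95% interval -0.82 to 0.42). Fads1 made up 51.4% ± 4.10 of their summed level in control and 47.8% ± 2.45 in obesogenic libraries (SD, n = 3; exact permutation test, two-sided, p = 0.3, adjusted over 3 shares p = 0.45).

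**Figure D2:**
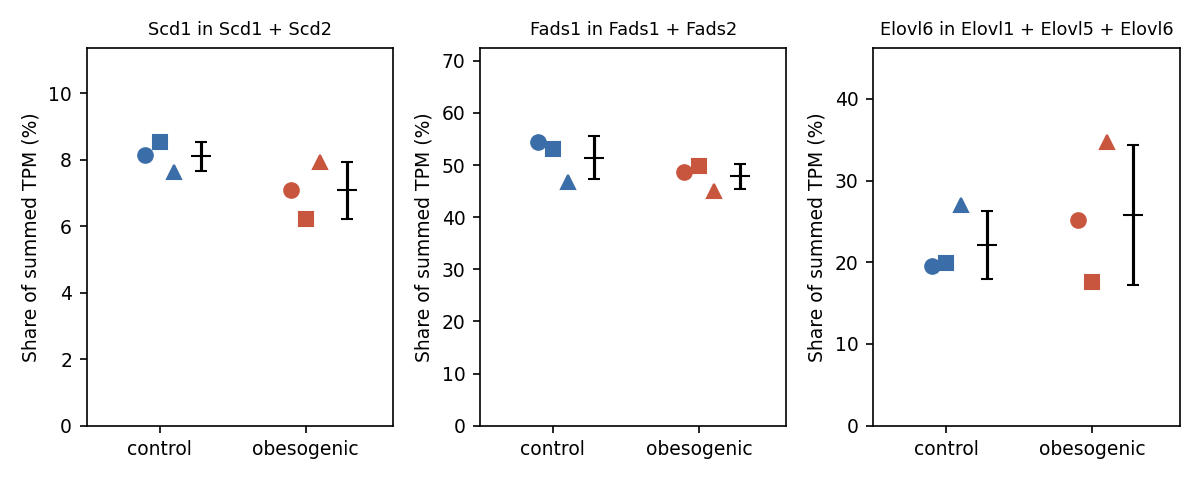
Share of Scd1, Fads1 and Elovl6 in the summed TPM of their family in percent, one point per library, with the mean and SD of each diet in black at the right of its points. The points of the diets overlap in all 3 families.

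Elovl1 (ENSMUSG00000006390) lengthens saturated and monounsaturated very-long-chain fatty acids, which enter the sphingolipids of myelin. It measured 142, 158 and 139 TPM in control libraries and 132, 84.3 and 62.9 TPM in obesogenic libraries 1, 2 and 3. All obesogenic values were below all control values, with library 1 close to the control range and library 3 lowest. The log2 change was -0.71 (SE 0.28, 95% interval -1.36 to -0.07), with an unadjusted p of 0.0350 and a limma adjusted p of 0.425. Lower values without overlap were found in 7.45% of all genes tested and in 1 of the 10 here, a share that is near that background. Elovl1-207, a coding transcript with 85.0% of the listed level of the gene, was at 104, 142 and 125 TPM with the control diet, against 112, 71.0 and 56.6 TPM with the obesogenic diet, and there the diets overlapped. These values cover 5 of the 7 Elovl1 transcripts and 2 of its 4 coding ones in GENCODE vM21.

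Elovl6 (ENSMUSG00000041220) lengthens palmitate to stearate. It was at 36.8, 40.0 and 55.5 TPM in control libraries, while obesogenic libraries gave 46.9, 20.4 and 36.1 TPM, so library 1 lay inside the control range and library 3 just below it. Its log2 change was -0.40 (SE 0.33, 95% interval -1.18 to 0.37), and -0.074 without obesogenic library 2. Elovl5 (ENSMUSG00000032349), which lengthens polyunsaturated chains, measured 8.92, 2.82 and 11.8 TPM on the control diet and, on the obesogenic diet, 7.65, 11.6 and 5.11 TPM. All its obesogenic values were inside the control range, and it was the one gene of the 10 whose highest obesogenic value was in library 2. The Elovl5 values cover only part of the gene: the table listed 3 of its 4 transcripts in GENCODE vM21, and Elovl5-201, the transcript with the longest coding sequence, 897 bases, was not analysed here. Elovl6 made up 22.2% ± 4.17 of the summed level of the 3 elongases in control and 25.8% ± 8.59 in obesogenic libraries (SD, n = 3; exact permutation test, two-sided, p = 0.7, adjusted over 3 shares p = 0.70). That share rests on incomplete values of both Elovl1 and Elovl5.

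**Figure D3:**
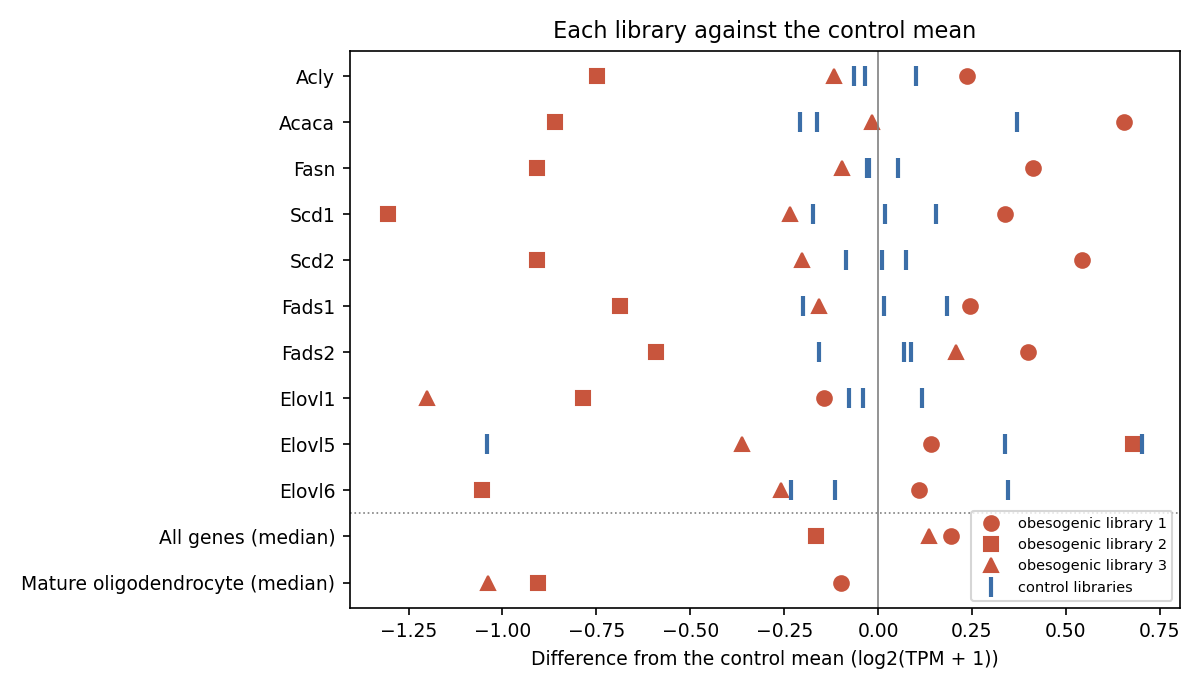
Difference of each library from the control mean on the log2(TPM + 1) scale, with obesogenic libraries as red symbols and control libraries as blue ticks. The 2 lower rows give the medians of all genes tested and of the mature oligodendrocyte markers. Obesogenic library 2 is leftmost in 8 genes, and Elovl1 shares with the oligodendrocyte median the position of library 3 at the left.

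The order library 1, then 3, then 2 held in 8 of the 10, all but Elovl1 and Elovl5, and in 25.3% of all genes tested. Library 1 above and library 2 below every control library held in 7 of 10 and in 18.6% of all genes. Neither was particular to the 10. Among tested genes the order held in 72.7% of astrocyte, 57.1% of oligodendrocyte precursor and 35.7% of mature oligodendrocyte markers. It held in 71.4% of malonyl-CoA control, 71.4% of other desaturases with their electron donors, and 39.7% of all other pathway genes. The second pattern held in 57.1% of precursor markers, 57.1% of malonyl-CoA control, 30.2% of all other pathway genes and 0% of mature oligodendrocyte markers. Both patterns were chosen after the values were seen and carry no test. The median difference of the 10 from the control mean was 0.29, -0.82 and -0.18 in libraries 1, 2 and 3. Less the median of all genes in the same library, Fasn was at 0.22, -0.74 and -0.23 and Scd2 at 0.35, -0.75 and -0.34. The spread between obesogenic libraries was larger than between control libraries in 9 of the 10 genes, and in 73.1% of all genes. The median SD on the log2 scale was 0.15 in control and 0.56 in obesogenic libraries for the 10 genes, and 0.24 and 0.43 for all genes. For Fasn, whose SD between control libraries was the smallest of the 10, it was 0.05 and 0.67. Without obesogenic library 2 the diet difference of the 10 genes changed sign for most of them. With it 8 had a lower obesogenic mean and the median log2 change was -0.20, against 42.3% and 0.08 over all genes tested. Without it 3 had a lower mean and the median was 0.06, against 37.3% and 0.16 over all genes. The median of all genes thus moved up as well. Again 0 of the 10 passed, in a fit that called 6.36% of all genes tested. With TPM rescaled to leave out immunoglobulin genes 7 of the 10 were lower, and their median was -0.10 against 0.17 over all genes.

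Differences of the 10 genes stood beside differences in markers of myelinating cells. Summed mature oligodendrocyte markers were at 66171, 63540 and 71605 TPM with the control diet, against 56810, 27796 and 29005 TPM with the obesogenic diet. All 14 markers had a lower obesogenic mean, with a median log2 change of -0.65, and 5 were lower without overlap, against 42.3% of all genes tested with a lower mean and 7.45% lower without overlap. Mobp, a myelin protein gene, had a log2 change of -1.07 (SE 0.40) and Cldn11, which seals the layers of the myelin sheath, of -1.12 (SE 0.24), and neither passed (limma adjusted p = 0.420 and 0.228). Less the median of these markers in the same library, Elovl1 was at -0.05, 0.12 and -0.16 in the obesogenic libraries. On the same measure Fasn was at 0.51, -0.0036 and 0.94, Scd2 at 0.64, -0.0052 and 0.84 and Fads2 at 0.50, 0.31 and 1.25. The part of oligodendrocyte content in any of these values was not tested, and in bulk RNA fewer cells of a type and less RNA per cell cannot be told apart. Summed meningeal fibroblast markers, of which all 10 had a lower obesogenic mean, were at 1584 to 2276 TPM in control libraries, while obesogenic libraries gave 618 to 779 TPM. Summed astrocyte markers were at 6165 to 8019 TPM and 2986 to 7173 TPM. Summed oligodendrocyte precursor markers were at 279 to 346 TPM with the control diet, against 308, 163 and 294 TPM with the obesogenic diet. Of these 7 markers 6 had a lower obesogenic mean and 1 was lower without overlap. As a percentage of the control mean, their sum stood at 101%, 53.6% and 96.6% in obesogenic libraries 1, 2 and 3. The sum of the 10 genes stood at 135%, 55.3% and 87.9%. Summed endothelial markers were at 227 to 354 TPM and 124 to 140 TPM, with 9 of 9 lower on average and 7 without overlap. Summed pericyte and smooth muscle markers were at 757 to 1174 TPM and 403 to 426 TPM, with 7 of 7 tested lower on average and 5 without overlap. The part of these cells, and of the adipocyte transcripts, was not tested either.

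**Figure D4:**
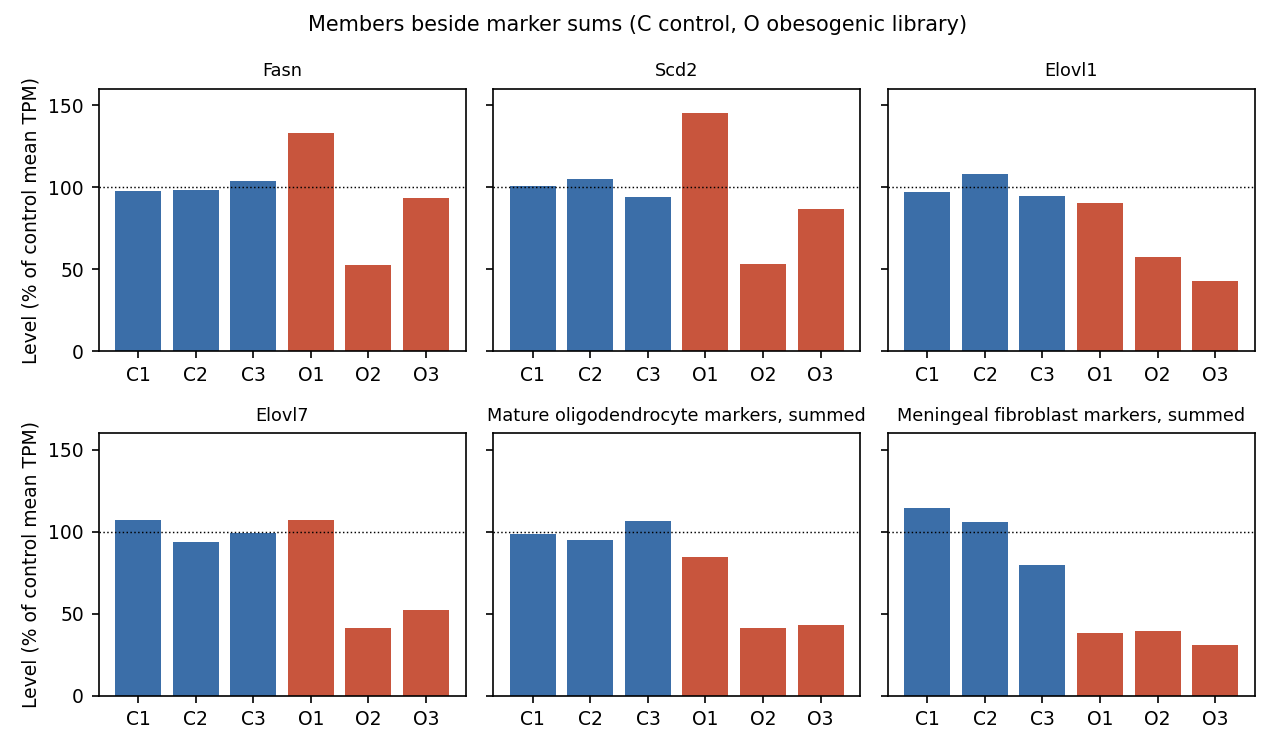
Level in each library as a percentage of the control mean TPM, for 4 genes and for 2 marker sums, with control libraries in blue and obesogenic libraries in red. In obesogenic library 3 Elovl1 stood at 43.0%, Elovl7 at 52.4% and the oligodendrocyte markers at 43.2%, against 93.4% for Fasn and 86.8% for Scd2.

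No single transcript of the 10 genes passed either. The table listed 49 transcripts of these genes, 34 were tested, and 0 passed (limma, smallest adjusted p = 0.319), against 0.00565% of all 35408 transcripts tested. An unadjusted p under 0.05 was found for 2 of the 34, Fads1-202 and Elovl1-207. The matching count over all transcripts is not given here. Over all genes it was 1575 of 14364, so the 2 are not read as an excess. Only Fads1-202, a minor coding transcript, had all obesogenic values below all control values, and this held for 6.11% of all transcripts, while 0 were higher without overlap (7.43% of all transcripts). It measured 16.6, 12.3 and 15.4 TPM on the control diet and, on the obesogenic diet, 4.39, 5.34 and 8.06 TPM, a log2 change of -1.21 (SE 0.30, limma adjusted p = 0.319). Its share of the listed Fads1 level was 3.82% to 6.26% in control and 1.30% to 3.17% in obesogenic libraries, while Fads1-201 held 91.5% over all libraries. Most genes were carried by few transcripts: Scd2-201 held 98.9% of Scd2, Scd1-201 99.0% of Scd1 and Fads2-201 99.4% of Fads2. Fasn-205 held 74.0% and Fasn-201, with the longest coding sequence, 17.5% of Fasn, and Acly-207 and Acly-203 held 57.7% and 38.4% of Acly.

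Around these 10 genes, 70 further genes of the pathway were listed by role. Of these, 63 were tested and 0 passed, with 3 at an unadjusted p under 0.05. Over all 14364 genes tested 1 passed (0.00696%) and 1575 had an unadjusted p under 0.05. Of the 63, 34 had a lower obesogenic mean (54.0%, against 42.3% of all genes tested), 8 were lower without overlap and 2 higher without overlap (12.7% and 3.17%, against 7.45% and 8.88% of all genes tested). Their median log2 change was -0.10, that of the 10 genes -0.20 and that of all genes tested 0.08.

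Other elongases and enzymes of the elongation cycle gave 0 of 7 tested genes past the threshold. Of the 7, 4 had a lower obesogenic mean (57.1%, against 42.3% of all genes tested). The summed level of all 11 listed genes was at 775 to 850 TPM in control libraries. In obesogenic libraries 1, 2 and 3 it was at 995, 523 and 1208.5 TPM, so the list was not lower as a whole. Elovl7, an elongase of long chains, was at 76.6, 66.8 and 71.0 TPM with the control diet, against 76.4, 29.6 and 37.4 TPM with the obesogenic diet (log2 change -0.69, SE 0.34, limma adjusted p = 0.513). Library 1 lay in the control range and libraries 2 and 3 far below it. As a percentage of the control mean TPM, Elovl7 stood at 107%, 41.5% and 52.4% and the summed oligodendrocyte markers at 84.7%, 41.4% and 43.2%, and their part in the Elovl7 values was not tested. Hacd1, a dehydratase of the cycle, was low throughout, at 2.09 to 4.80 TPM in control libraries, while obesogenic libraries gave 0.236 to 0.918 TPM, without overlap (log2 change -1.48, SE 0.38, limma adjusted p = 0.269). Hacd4 had a log2 change of -0.67 (SE 0.41). Elovl2 was listed at 0 in every library, Elovl4 stayed under 1 TPM, and Elovl3 reached 6.45 TPM in control library 3 and at most 0.247 TPM in any other, so these 3 were not tested.

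Among other desaturases and their electron donors 0 of 7 tested genes passed, 6 had a lower obesogenic mean and 3 were lower without overlap (42.3% and 7.45% of all genes tested). Degs1, the desaturase that makes ceramide, was at 300, 289 and 262 TPM on the control diet and, on the obesogenic diet, 252, 162 and 210 TPM (log2 change -0.46, SE 0.21, limma adjusted p = 0.477). Degs2 was at 10.6 to 19.4 TPM with the control diet, against 5.05 to 8.83 TPM with the obesogenic diet. Cyb5a, the cytochrome b5 that passes electrons to desaturases, was at 202 to 222 TPM and 156 to 182 TPM (log2 change -0.31, SE 0.16). These 3 had all obesogenic libraries on the lower side. Scd3, a close relative of Scd1 and Scd2, was at 7.59 to 20.1 TPM in control libraries, while obesogenic libraries gave 3.34 to 11.8 TPM. Reads of such relatives can be shared out between them by the quantification. Fads3 overlapped at 13.3 to 35.6 and 18.0 to 35.8 TPM, Fads6 at 2.51 to 3.23 and 1.50 to 4.12 TPM, and Scd4 stayed under 1 TPM.

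The supply of acetyl-CoA and NADPH gave 0 of 9 genes past the threshold. Taldo1, of the pentose phosphate pathway, was at 508 to 540 TPM on the control diet and, on the obesogenic diet, 493, 335 and 318 TPM, without overlap (log2 change -0.47, SE 0.22, limma adjusted p = 0.486). G6pdx, the first enzyme of that pathway, had a log2 change of 0.74 (SE 0.37) and overlapped. Me1, the cytosolic malic enzyme, was at 0, 0.388 and 1.17 TPM with the control diet, against 7.53, 4.20 and 0 TPM with the obesogenic diet. In malonyl-CoA control 0 of 7 passed. Mid1ip1, which activates acetyl-CoA carboxylase, was at 393, 394 and 417 TPM in control libraries, while obesogenic libraries gave 451, 227 and 339 TPM, with the highest value again in library 1 and the lowest in library 2. Prkaa1, a catalytic subunit of AMPK, and Prkab1, a regulatory subunit, had log2 changes of 0.23 (SE 0.21) and -0.25 (SE 0.33). Mitochondrial fatty acid synthesis gave 0 of 9 tested genes, with Cbr4, Mecr and Lipt1 at -0.50, -0.60 and 0.43, and Hsd17b8 was not analysed here. Cbr4 and Mecr were the only 2 of these 9 with a lower obesogenic mean (22.2%, against 42.3% of all genes tested). The median log2 change of the 9 was 0.19.

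**Figure D5:**
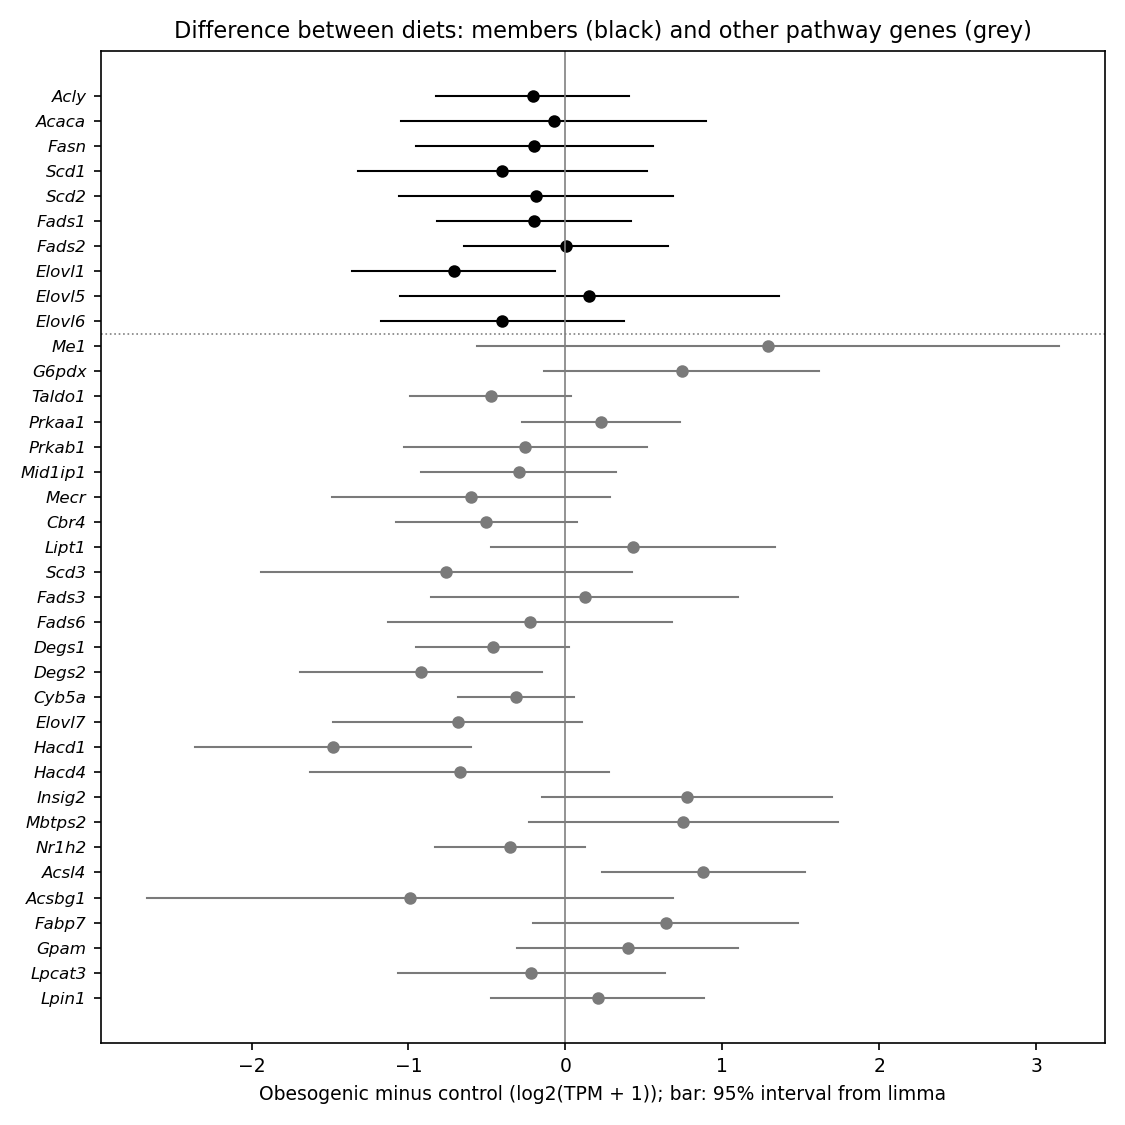
Obesogenic minus control difference on the log2(TPM + 1) scale with its 95% interval from limma, for the 10 genes in black and the other pathway genes in grey. Of the 10, Elovl1 has an interval that stops short of 0, at -0.07, before any adjustment over genes.

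Of the regulators 0 of 12 passed. Srebf1 and Srebf2, which encode the SREBP factors, were at 114 to 145 and 114 to 134 TPM in control, and at 107 to 176 and 83.1 to 156 TPM in obesogenic libraries. Both had obesogenic library 1 above and library 2 below every control library, with log2 changes of 0.00 (SE 0.23) and -0.10 (SE 0.25). Insig2, which holds SREBP in the endoplasmic reticulum, was at 11.6, 17.8 and 18.1 TPM on the control diet and, on the obesogenic diet, 35.0, 14.8 and 39.2 TPM. Libraries 1 and 3 were above all control libraries and library 2 among them (log2 change 0.78, SE 0.39, limma adjusted p = 0.521). In the fit without obesogenic library 2 its log2 change was 1.20 with a limma adjusted p of 0.0418. That fit called 1 of the 12 regulators and 6.36% of all genes tested. Libraries 1 and 3 were also those with the most neuronal transcripts, whose part in this was not tested. Mbtps2, a protease that frees SREBP, had a log2 change of 0.75 (SE 0.42), and Nr1h2, which encodes LXR beta, was lower without overlap (log2 change -0.35, SE 0.20, limma adjusted p = 0.581).

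Fatty acid activation and carriers gave 0 of 8 past the threshold. Of the 8, 5 had a lower obesogenic mean (62.5%, against 42.3% of all genes tested), with a median log2 change of -0.15. Higher without overlap were 2, Acsl4 and Fabp7 (25%, against 8.88% of all genes tested). Acsl4, an acyl-CoA synthetase that favours arachidonic acid, was at 7.35, 8.22 and 11.1 TPM with the control diet, against 16.2, 14.1 and 21.4 TPM with the obesogenic diet, higher without overlap (log2 change 0.88, SE 0.28, limma adjusted p = 0.351). Fabp7, a fatty acid carrier of glia, was also higher without overlap but under 2 TPM in every library. Acsbg1 ran from 2.95 to 7.61 TPM in control and from 0 to 6.16 TPM in obesogenic libraries. The glycerolipid targets of SREBP-1 gave 0 of 4, with Gpam, Lpin1 and Lpcat3 at log2 changes of 0.40, 0.21 and -0.22.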

How the data were processed

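RNA was made into libraries with a SMART-Seq mRNA kit, per the labels' protocols. The authors deposited transcript abundances in TPM, per the file headers. Tools listed in the submitters' processing notes were STAR 2.7.9a, featureCounts 2.0.3 of Subread, and DRAGEN, with no role stated. Genes carry no coordinates, since their genome build was not given in the sources used here. TPM keeps no depth, so depth is unknown and intervals of counting error could not be given. The listed values summed to 788456 to 832193 TPM per library. Repeated lines of 415 transcripts were counted once, transcripts were summed to genes, and a gene was tested if 3 libraries or more reached 1 TPM.

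Values were tested as log2(TPM + 1), which understates the change of low genes, with limma 3.58.1 in R 4.3.3 (lmFit, eBayes with a trend). P-values are two-sided and Benjamini-Hochberg adjusted over all genes (or transcripts), and measure the spread between these libraries, which may be technical. The genes, lists and tests were chosen with earlier results of these data known. Besides the 10 genes, the text names the other Scd, Fads and Elovl genes, up to 3 genes of smallest unadjusted p per pathway list, up to 2 per marker list, Nf1 and Gfap. Srebf1, Srebf2, Lep and Cidec were named after their values were seen. The fit was also run on simulated data, in which each gene had the same spread in every library. The libraries here differed in spread, so that run does not check the fit under unequal spread. Start-site windows are from RefSeq (GRCm38.p6), and transcript names were compared with GENCODE vM21. Alternatives covered pseudocount, filter, scaling, array weights, the replicate number as a block, the most abundant transcript and each library left out. Figures used matplotlib 3.10.9.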

Additional observations from a re-analysis of the deposited data

How the results depend on the processing

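In every alternative 0 of the 10 genes and 0 of their transcripts passed. Elovl1 was lower in all of them, with log2 changes from -0.99 to -0.27 and limma adjusted p from 0.234 to 0.811. Weighting libraries by their fit (array weights), which gave obesogenic library 2 a weight of 0.185 and library 1 one of 4.69, called 2064 genes. It turned the direction of Acly (0.18), Acaca (0.54), Fasn (0.33), Scd1 (0.21), Scd2 (0.42), Fads1 (0.16), Elovl6 (0.063), Fads3 (-0.15), Fads6 (0.32), Mid1ip1 (0.10) and Acsbg1 (0.10), with none of these passing, and called 1 gene each of supply, elongation cycle and activation and 2 regulators, against 14.4% of all genes tested. Genes that passed there were Me1 (2.31, adjusted p = 0.0332), Hacd1 (-1.43, 0.0187), Insig2 (1.10, 0.0196), Mbtps2 (1.23, 0.0396), Acsl4 (0.86, 0.0265) and Cldn11 (-0.78, 0.0283). Directions also turned for Acaca at 0.018 when scaled without immunoglobulin genes, for Fads2 at -0.047 with median-ratio scaling, and, with the most abundant transcript, for Acaca (0.17), Elovl5 (-0.081), Nf1 (0.18) and Prkab1 (0.36). Median-ratio scaling moved the median of all genes from 0.08 to 0.03, and leaving immunoglobulin genes out of the scale to 0.17. Without the filter on low values 0 genes were called in all.

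With each library left out in turn, 0 to 914 genes were called in all, the highest without obesogenic library 2, and 0 to 1 regulators. Ranges were -0.43 to 0.061 for Acly, -0.44 to 0.32 for Acaca, -0.50 to 0.16 for Fasn, -0.77 to 0.051 for Scd1, -0.56 to 0.17 for Scd2, -0.42 to 0.044 for Fads1, -0.19 to 0.30 for Fads2, -0.37 to 0.50 for Elovl5, -0.66 to -0.074 for Elovl6, -1.08 to -0.41 for Elovl7 and -0.19 to 0.49 for Fads3, and in percentage points -0.81 to 7.76 for the Elovl6 share, -1.44 to -0.590 for the Scd1 share and -5.88 to -2.04 for the Fads1 share. Causes of these changes were not tested.

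Replicate numbers are shared between diets. Same-numbered libraries deviated together with correlations of 0.008, 0.177 and 0.132, and libraries of different number with -0.169 to 0.107. Obesogenic library 1 correlated better with control library 3 (0.107) than with control library 1 (0.008). Every other library correlated best with its own number, though weakly. The numbers were not taken as pairs in the main fit, and a fit with them as a block was run beside it. With the replicate block 0 of the 10 genes and 1 gene in all were called. In this balanced design the block cannot change a log2 change, only its error, and Elovl1 had a limma adjusted p of 0.401. Depth is unknown, so what it limits could not be given.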
